A study of Homo sapiens with 4 samples.

Results

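The 10 genes described here are imprinted: PEG10, SGCE, NAP1L5, MEST, PLAGL1, GNAS, SNRPN, CDKN1C, PHLDA2 and PEG3. They were taken by symbol from a table of 39259 genes, and all 10 were found in it. The RNA came from the established human cell line MDA-MB-231, a model of triple-negative breast cancer that is known to lack the oestrogen and progesterone receptors. Of 4 libraries, 2 are labelled wild type (WT) and 2 carry the label mdig knockout (KO) in their genotype. The protein mdig (MINA53) is a JmjC-domain oxygenase whose gene is RIOX2. The labels name no treatment, and both groups were grown in the same serum-containing medium. How the knockout was made, and whether it is a single clone, is not given in the sources used here. Nothing says that the replicates were separate cultures, so the p-values rest on library-to-library spread that may be purely technical.

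At an imprinted gene, the copies inherited from the mother and from the father are marked differently by DNA methylation in the germ line, and in many tissues only the copy from a given parent is transcribed. Most such genes lie in clusters with a shared control region. As a group they are known for control of fetal and placental growth, and their methylation is often altered in cancer. Methylation of these regions is kept after fertilization by the zinc finger proteins ZFP57 and ZNF445, which bring in TRIM28 and DNMT1. PEG10, SGCE, NAP1L5, MEST, PLAGL1, SNRPN and PEG3 are known to be expressed from the paternal copy, and CDKN1C and PHLDA2 from the maternal copy. GNAS has several promoters that differ in the parental copy they use. The table holds a single value per gene and none per allele or promoter, so it shows levels and not which copy was read.

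The libraries held 22503981 to 52163811 fragments assigned to genes, with WT replicate 2 the shallowest. RIOX2 RNA did not fall in the KO libraries (8.60 and 8.24 FPKM in WT, 9.23 and 9.82 FPKM in KO; log2 change 0.16, limma adjusted p = 0.0546). The RNA level therefore leaves the KO label unchecked, and "KO" below means the libraries so labelled, also where a direction is given. Of the 6 genes listed as high in the line, CD44, CAV1 and FN1 were called higher, with log2 changes of 0.18, 0.59 and 0.74. AXL and ZEB1 were not called. VIM, a mesenchymal filament gene, was called lower (limma adjusted p = 0.0154). It was at 2275 and 2394 FPKM in WT and 2000 FPKM in both KO libraries. ESR1 and PGR had at most 1 fragment in any library. CDH1, the epithelial cadherin, was under the filter described below, at 0.177 and 0.1275 FPKM in WT and 0.597 and 0.625 FPKM in KO. The epithelial adhesion gene EPCAM was called higher, from 2.01 to 2.645 FPKM in the means (limma adjusted p = 0.0103). ERBB2 (12.98 to 13.76 FPKM in the means) was not called. Marker genes of other cells summed to 0.454 to 0.488 FPKM for the 4 leukocyte genes in all libraries, with CD3E at no more than 1 fragment in any library. The 5 fibroblast genes summed to 3.15 and 3.255 FPKM in WT and to 4.54 and 4.26 FPKM in KO. Of these, the collagen gene COL1A1 (1.98 to 2.85 FPKM in the means, limma adjusted p = 0.00341) and the receptor gene PDGFRB (1.19 to 1.49 FPKM, limma adjusted p = 0.0438) were called higher. COL1A2 had at most 12 fragments in any library, and DCN and LUM at most 2. The 3 endothelial genes summed to 1.005 and 1.05 FPKM in WT and to 1.37 and 1.39 FPKM in KO, nearly all from PECAM1, which was called higher (limma adjusted p = 0.0105). CDH5 and VWF, also defining markers of endothelium, were at or below 0.0324 FPKM. The part of these marker changes in the results was not tested. In such bulk RNA, fewer cells that express a gene and less RNA per cell cannot be told apart.

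Sequence context was available for 5 of the 10 genes in the RefSeq promoter table (GRCh38.p14), which gives 250 bases before and 50 bases after each annotated start. NAP1L5 had 1 such window, MEST and PLAGL1 5 each, GNAS 6 and SNRPN 4; PEG10, SGCE, CDKN1C, PHLDA2 and PEG3 had no entry. The windows were searched on both strands for the letters TGCCGC, the methylated hexamer that ZFP57 is known to bind, with overlapping matches counted separately. It occurred in 9 of the 21 windows (42.9%): 4 of MEST, 2 of SNRPN and 1 each of NAP1L5, PLAGL1 and GNAS. Over all 35116 windows the share was 16.7%. Over the windows of genes tested here, which leave out PLAGL1 and SNRPN, it was 24.4%. Some windows of a gene overlap, and the 15 matches in these windows fall on 12 distinct positions, so the windows are not independent. For a comparison of the gene that rose (NAP1L5), a gene with no detected change (MEST) and 2 genes listed at or near 0 (PLAGL1 and SNRPN), the window with the most matches is shown for each, 5′ to 3′ on the strand of the gene. Capitals mark TGCCGC or its reverse complement GCGGCA.
NAP1L5, chr4:88697780-88698079, minus strand: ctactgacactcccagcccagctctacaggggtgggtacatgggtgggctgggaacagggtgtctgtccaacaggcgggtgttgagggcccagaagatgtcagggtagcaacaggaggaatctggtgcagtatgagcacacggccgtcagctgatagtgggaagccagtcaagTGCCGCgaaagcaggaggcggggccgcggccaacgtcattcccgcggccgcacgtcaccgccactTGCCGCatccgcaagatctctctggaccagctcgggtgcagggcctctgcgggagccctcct
MEST, chr7:130491835-130492134, plus strand: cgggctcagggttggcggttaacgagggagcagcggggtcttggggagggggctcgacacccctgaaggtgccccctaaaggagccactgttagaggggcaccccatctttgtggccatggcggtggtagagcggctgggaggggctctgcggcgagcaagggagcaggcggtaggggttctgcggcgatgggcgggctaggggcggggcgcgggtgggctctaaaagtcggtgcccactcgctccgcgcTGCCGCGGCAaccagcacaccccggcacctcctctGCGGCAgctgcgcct
PLAGL1, chr6:144008210-144008509, minus strand: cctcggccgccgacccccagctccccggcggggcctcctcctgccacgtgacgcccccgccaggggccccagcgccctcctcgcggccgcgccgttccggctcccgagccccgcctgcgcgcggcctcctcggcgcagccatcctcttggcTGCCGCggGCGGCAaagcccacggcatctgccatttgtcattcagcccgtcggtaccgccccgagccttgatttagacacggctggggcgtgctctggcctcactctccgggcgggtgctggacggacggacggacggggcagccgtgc
SNRPN, chr15:24954737-24955036, plus strand: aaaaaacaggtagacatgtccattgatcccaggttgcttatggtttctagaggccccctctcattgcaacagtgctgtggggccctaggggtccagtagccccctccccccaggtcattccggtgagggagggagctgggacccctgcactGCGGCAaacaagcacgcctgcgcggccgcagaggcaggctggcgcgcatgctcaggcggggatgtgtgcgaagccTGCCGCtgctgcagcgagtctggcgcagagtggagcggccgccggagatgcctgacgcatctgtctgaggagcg
The PLAGL1 window starts transcription at the position where the deposited table also starts HYMAI, a noncoding imprinted RNA of the same strand, and the SNRPN window at the start of SNURF. These windows hold 18 (NAP1L5), 25 (MEST), 39 (PLAGL1) and 18 (SNRPN) CpG dinucleotides, against a median of 14 over all windows and of 26 over those of tested genes. The GNAS window with the most CpG dinucleotides held 43, more than 95.0% of all windows. Windows that hold these letters thus belonged to genes with very different levels, from PLAGL1 near 0 to GNAS at 95 FPKM or more, with 1 match in a GNAS window. A match describes the letters and is not evidence of binding.

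The 10 genes differed widely in level. FPKM scales the fragments of a gene by its length and by the assigned total of the library, and allows levels to be compared between genes. In WT the order was GNAS, PHLDA2, PEG10, SGCE, MEST, CDKN1C, NAP1L5, PLAGL1, and then SNRPN and PEG3, which are listed at 0. GNAS and PHLDA2 were not separated beyond their spread, with means of 115 ± 6.09 and 109 ± 14.1 FPKM in WT (SD, n = 2 libraries, as in all such values here). The WT mean of GNAS was above that of 98.9% of the genes in the table and that of MEST above 81.7%. In KO, NAP1L5 moved above CDKN1C, and the order of the other genes was the same. Changes were tested with limma on log2(FPKM + 1) for the 11716 genes that averaged 1 FPKM or more across all libraries, with p-values adjusted over all of them. Of the 10, 6 passed this filter (PEG10, SGCE, NAP1L5, MEST, GNAS and PHLDA2); 5 of the 10 reached 1 FPKM on average in WT and 6 in KO. Among all tested genes 49.9% were called at an adjusted p under 0.05, 21.6% as higher and 28.4% as lower in KO. Of the 6 tested imprinted genes, 1 was called higher and 3 lower, and with 6 genes against that background the counts say nothing particular about imprinted genes. Their median log2 change was −0.20, against −0.04 over all tested genes.

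**Figure D1:**
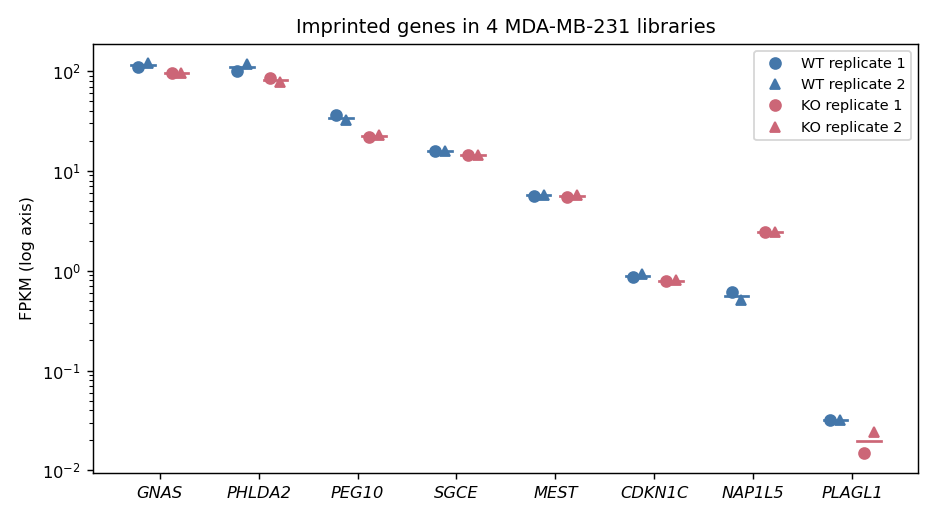
Level of the 8 imprinted genes with any fragment in each of the 4 libraries (FPKM, log axis), ordered by the WT mean; points are libraries, circles replicate 1 and triangles replicate 2, and short lines are group means (n = 2). NAP1L5 lies near 0.5 to 0.6 FPKM in WT and above 2.4 FPKM in KO, PEG10 falls from 32.3 and 36.0 to 22.1 and 22.8 FPKM, and the MEST points overlap; SNRPN and PEG3, at 0 in all libraries, are not drawn.

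NAP1L5, a retrocopy-derived member of the nucleosome assembly protein family with no introns, rose more than any of the other 5 tested genes. It lies on chromosome 4 (88695913 to 88697829, minus strand; coordinates as deposited, which match GRCh38) inside the body of HERC3, a ubiquitin ligase gene of the plus strand. Its level was 0.612 and 0.510 FPKM in WT (53 and 22 fragments) against 2.46 and 2.43 FPKM in KO (230 and 243 fragments). Both KO libraries were far above both WT libraries, and the means differed 4.36-fold. On the log2(FPKM + 1) scale, which understates changes of low genes, the rise was 1.14 (SE 0.067, limma adjusted p = 1.36e-05); with a pseudocount of 0.1 it was 1.95. NAP1L5 passed the filter only through its level in KO. With no filter on low values the estimate was the same (1.14, SE 0.058, limma adjusted p = 0.00531).

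Genes around NAP1L5 were also higher in KO. Of 6 tested genes that start within 500 kb, 5 rose, against 21.6% of all tested genes, and 1 did not pass the test (median 0.61, range 0.07 to 0.76). The host gene HERC3 went from 3.06 and 2.56 FPKM in WT to 5.25 and 5.59 FPKM in KO, a log2 change of 0.76 (limma adjusted p = 0.000186). The neighbouring HERC5, an interferon-induced ligase for the ubiquitin-like protein ISG15, rose by 0.64. The log2 ratio of NAP1L5 to HERC3 within a library was −2.32 and −2.33 in WT and −1.09 and −1.20 in KO, so that NAP1L5 rose beyond its host by 1.18 on the log2 scale. That difference was larger than the spread between libraries. With 2 against 2 libraries, an exact permutation test cannot give a two-sided p under 0.333, the value obtained, so it decides nothing here. In the 20 Mb bin around NAP1L5, the median log2 change of the 43 other tested genes was 0.27. With bin medians subtracted, the change of NAP1L5 was 0.87 (limma adjusted p = 5.95e-05). That fit used the same filter, which NAP1L5 passed only through its level in KO. DNA copy number was not measured, and its part in these changes was not tested. Of other members of the family, NAP1L1 and NAP1L4 were tested, and neither was called higher. NAP1L1 fell by 0.15 (limma adjusted p = 0.0377), in a bin with a median of −0.15. NAP1L4 was at 43.9 ± 1.185 FPKM in WT and 45.1 ± 0.0940 FPKM in KO and was not called. NAP1L2 and NAP1L3 were under the filter. NAP1L2 had 19 and 4 fragments in WT and 3 in both KO libraries, and NAP1L3 at most 1 in any library.

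PEG10 and SGCE start 120 bp apart on opposite strands of chromosome 7 and share a promoter region. Both had a negative log2 change, but only PEG10 was called lower. PEG10, which derives from a retrotransposon and encodes gag- and pol-like proteins needed for the placenta, was lower in KO. It measured 36.0 and 32.3 FPKM in WT and 22.1 and 22.8 FPKM in KO, from 4813 to 10791 fragments. The groups did not overlap, and the log2 change was −0.58 (SE 0.065, limma adjusted p = 0.000275). SGCE encodes epsilon-sarcoglycan, a membrane protein whose loss causes myoclonus dystonia. It measured 15.7 and 15.9 FPKM in WT and 14.4 in both KO libraries, again with no overlap of the groups. The log2 change of −0.12 did not pass the threshold (SE 0.053, limma adjusted p = 0.0881). It passed as lower with bin medians subtracted (−0.17, limma adjusted p = 0.0390).

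The log2 ratio of PEG10 to SGCE was 1.20 and 1.03 in WT and 0.62 and 0.66 in KO, a difference of −0.47 with no overlap between groups (exact permutation test, two-sided p = 0.333, the smallest possible with 2 against 2 libraries). Of the 3 tested genes that start within 500 kb of PEG10, none was called lower, against 28.4% of all tested genes. With 3 genes this count does not set PEG10 apart from its surroundings. CASD1, a sialic acid O-acetyltransferase gene that starts 146396 bp from SGCE, rose by 0.20, and the imprinted PPP1R9A, a neuronal actin-binding protein gene, was not called (1.33 to 1.19 FPKM in the means). The median of the 20 Mb bin was 0.04. Farther out, with its start 765452 bp from that of SGCE, the imprinted TFPI2, an inhibitor of serine proteases, fell from 16.4 and 17.5 FPKM in WT to 9.755 and 9.66 FPKM in KO (log2 change −0.74, limma adjusted p = 5.35e-05). PEG10 and TFPI2 were thus both lower, while SGCE was not called and CASD1 was higher. GNG11, which starts 734470 bp from SGCE on the side of TFPI2, was also called higher (0.25), and BET1 was not called. Among relatives of PEG10 that also descend from retrotransposon gag genes, RTL8A, RTL8B and RTL8C rose by 0.32, 0.43 and 0.54. These 3 are similar enough to share reads, and they lie on the X chromosome in bins with medians of 0.42, 0.36 and 0.36. SGCB, which encodes beta-sarcoglycan, rose by 0.36 (limma adjusted p = 0.00159), while SGCA, SGCD and SGCZ had at most 1 fragment in any library. Over the 21 relatives of the 10 genes, 13 were tested, of which 5 rose and 3 fell, against 21.6% higher and 28.4% lower among all tested genes.

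**Figure D2:**
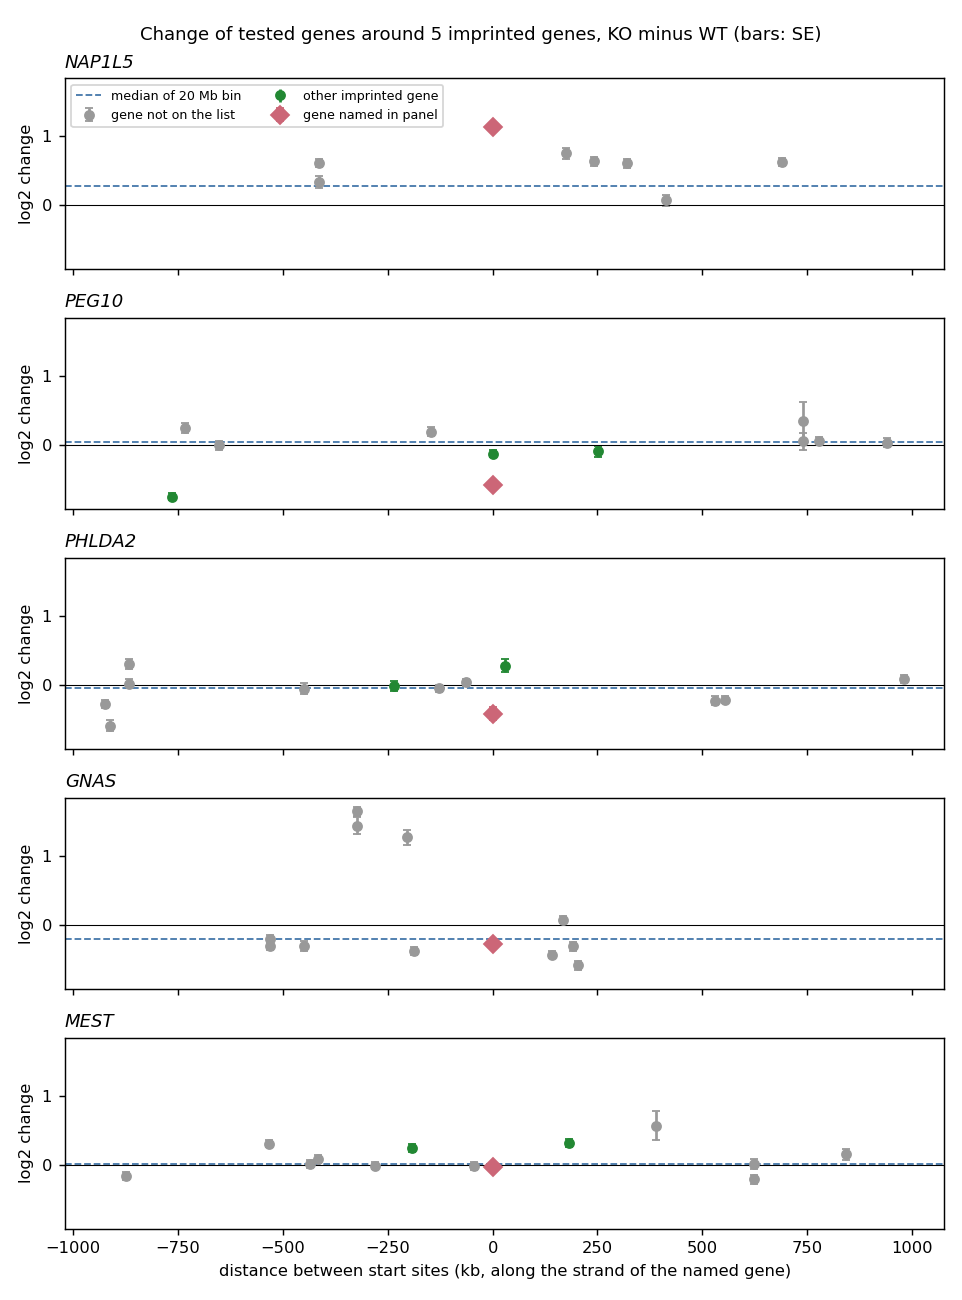
Log2 change (KO minus WT, of FPKM + 1; bars, SE) of tested genes within 1000 kb of the start of 5 imprinted genes, against distance in kb; diamonds are the gene named in the panel, green points other imprinted genes, grey points the rest, and the dashed line the median of the 20 Mb bin. NAP1L5 (1.14) sits above neighbours that are mostly higher, PEG10 (−0.58) and PHLDA2 (−0.41) below the tested neighbours within 500 kb but above TFPI2 (−0.74) and RHOG (−0.59) farther out, GNAS (−0.27) close to its bin median (−0.21), and MEST (−0.02) near 0 between the higher CPA4 and COPG2.

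PHLDA2 and CDKN1C are maternally expressed neighbours on the short arm of chromosome 11, with starts 43645 bp apart, and differed widely in level. PHLDA2 encodes a small pleckstrin-homology protein that restrains placental growth. It measured 99.1 and 119 FPKM in WT and 84.3 and 78.3 FPKM in KO, lower in both KO libraries than in either WT library. The log2 change was −0.41 (SE 0.091, limma adjusted p = 0.00983). With no filter on low values it was no longer called (limma adjusted p = 0.0622), with the same estimate. CDKN1C encodes p57, an inhibitor of cyclin-dependent kinases. It lay under the filter, at 0.867 and 0.916 FPKM in WT and 0.793 and 0.8004 FPKM in KO, from 40 to 81 fragments. Its difference on the log2(FPKM + 1) scale was −0.07; tested with no filter, it was not called (limma adjusted p = 0.395).

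Of 5 tested genes that start within 500 kb of PHLDA2, 1 rose, 4 were not called and none was called lower. Among all tested genes, 21.6% were called higher and 28.4% lower. With 5 genes these counts do not set PHLDA2 apart from its surroundings. Farther out, within 1 Mb, TSSC4 (−0.23), CD81 (−0.21), STIM1 (−0.28) and RHOG (−0.59) were called lower and PGAP2 (0.31) higher. The gene that rose was SLC67A1 (also SLC22A18), an imprinted transporter gene, with 1.21 and 1.60 FPKM in WT and 2.10 and 1.735 FPKM in KO (log2 change 0.28, limma adjusted p = 0.0495, at the edge of the threshold). NAP1L4 and OSBPL5, an oxysterol-binding protein gene, were not called. The log2 ratio of PHLDA2 to NAP1L4 was 1.20 and 1.41 in WT and 0.90 and 0.79 in KO (difference −0.46, exact permutation p = 0.333, two-sided and the smallest possible). KCNQ1OT1, the noncoding RNA that silences this cluster on the paternal copy, was under the filter, at 0.139 and 0.138 FPKM in WT and 0.110 and 0.129 FPKM in KO. These low values are spread over a length of 91671 bp, with 574 and 285 fragments in WT and 492 and 619 in KO. At the other end of the region, H19 had at most 9 fragments in any library and IGF2, the fetal growth factor gene, had 0, with 26.2% of its exon bases unshared on its strand. The imprinted KCNQ1 and IGF2-AS had at most 2 fragments in any library, and KCNQ1DN and ASCL2 had 0. Among relatives, the kinase inhibitor gene CDKN1A rose from 11.4 ± 0.849 to 23.9 ± 1.59 FPKM (log2 change 1.01, limma adjusted p = 3.41e-05), CDKN1B fell by 0.17, and PHLDA1 and PHLDA3 were not called.

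GNAS encodes the alpha subunit of the stimulatory G protein, which couples hormone receptors to adenylyl cyclase, and further proteins from other promoters. In WT it was at the level of PHLDA2, at 110.5 and 119 FPKM in WT and 95.0 and 95.1 FPKM in KO. Both KO libraries were below both WT libraries, with a log2 change of −0.27 (SE 0.056, limma adjusted p = 0.00486). The change was close to that of its surroundings on chromosome 20: the median over the 100 other genes of the bin was −0.21, and with bin medians subtracted GNAS was not called (−0.06, limma adjusted p = 0.414). Of 9 tested genes that start within 500 kb, 5 fell, 3 rose and 1 was not called. Among all tested genes, 28.4% were called lower and 21.6% higher. PRELID3B, a lipid-transfer protein gene, fell by 0.59 and NELFCD, a subunit of the negative elongation factor, by 0.43. APCDD1L rose from 3.77 ± 0.277 to 13.98 ± 0.362 FPKM together with APCDD1L-DT, a transcript that starts beside it. GNAS-AS1, the antisense RNA of the locus, is listed at 0 in all libraries. GNAL, which encodes the olfactory relative of the G protein, was far under the filter, with 78 and 34 fragments in WT and 3 and 5 in KO.

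MEST, which encodes a hydrolase-fold protein of the endoplasmic reticulum, showed no detectable change. It measured 5.655 and 5.77 FPKM in WT and 5.52 and 5.68 FPKM in KO, and the groups overlapped. The log2 change of −0.02 (SE 0.057, limma adjusted p = 0.740) turned to 0.01 with median-of-ratios scaling and was not called in either fit. Of 7 tested genes that start within 500 kb, 2 rose and 5 were not called, against 21.6% called higher among all tested genes. Of 4 other imprinted genes within 1 Mb, 2 were tested, and these were the 2 that rose within 500 kb. Farther out, within 1 Mb, UBE2H, which is not on the imprinted list, also rose (0.31), and LINC-PINT fell (−0.21). COPG2, a coatomer subunit gene that ends within the 3′ end of MEST on the opposite strand, rose from 9.92 ± 0.0413 to 12.65 ± 0.395 FPKM (0.32, limma adjusted p = 0.00210), and CPA4, a secreted carboxypeptidase gene, from 9.78 ± 0.295 to 11.8 ± 0.193 FPKM (0.24, limma adjusted p = 0.00791). The other imprinted genes were under the filter. MESTIT1, an antisense transcript at the start of MEST, had at most 3 fragments in any library, and KLF14, a transcription factor gene, at most 6. The log2 ratio of MEST to COPG2 was −0.81 and −0.79 in WT and −1.17 and −1.19 in KO (difference −0.38, exact permutation p = 0.333, two-sided and the smallest possible). Ratios of 4 such pairs were computed, and none could reach a smaller p, adjusted or not. The bin median was 0.01.

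PLAGL1, SNRPN and PEG3 had few or no assigned fragments. PLAGL1, a zinc finger transcription factor that restrains growth, had 8 and 4 fragments in WT and 4 and 7 in KO, or 0.0319 and 0.0320 FPKM against 0.0148 and 0.0242 FPKM. Tested with no filter, it was not called (limma adjusted p = 0.368), and HYMAI, which starts at 1 of its alternative promoters, is listed at 0. Its relatives PLAG1 and PLAGL2 were expressed, PLAG1 with no call and PLAGL2 lower by 0.18. SNRPN, which encodes a spliceosomal Sm protein of the Prader-Willi region, and PEG3, a zinc finger gene of chromosome 19, are listed at 0 in all 4 libraries. A count of 0 allows up to 3 fragments. Over the exon bases that each gene shares with no other gene of its strand, these would be 0.0336 to 0.0778 FPKM for SNRPN and 0.00564 to 0.0131 FPKM for PEG3, counting error only.

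For SNRPN the 0 carries a further limit. In the table's exon coordinates, 1714 of its 3665 exon bases (46.8%) are not shared with another gene of the same strand. Genes that share every exon base on the same strand were at 0 in all libraries in 96.8% of 340 cases, and none had more than 11 fragments over the 4 libraries, so fragments on such shared exons were largely not assigned to any gene. The 0 of SNRPN thus covers only its own bases. SNURF, SNHG14, NPAP1, IPW and NDN, which are transcribed from the same paternal region, are also listed at 0, and MAGEL2 had 1 fragment in all. PEG3 has 88.0% of its bases to itself; ZIM2, which shares its start, and MIMT1 and USP29 nearby are listed at 0 too. SNRPB, the relative of SNRPN on chromosome 20, was at 231 and 269 FPKM in WT and 237 and 217 FPKM in KO and was not called. In the region of SNRPN on chromosome 15, UBE3A, a ubiquitin ligase gene expressed from the maternal copy in neurons, rose by 0.28 (limma adjusted p = 0.00630). ATP10A, a phospholipid flippase gene, rose from 1.51 ± 0.0147 to 3.97 ± 0.0878 FPKM (0.99, limma adjusted p = 1.62e-05), in a bin with a median of 0.15. MKRN3, a paternally expressed ubiquitin ligase gene named here after its values were seen, was under the filter with 32 and 9 fragments in WT and 151 and 178 in KO (0.299 and 0.169 against 1.31 and 1.44 FPKM).

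The wider list of 65 imprinted genes, of which the 10 are part, gave no common direction. All 65 were in the table, and 20 had no fragment in any library, among them DLK1, MEG3 and IGF2. In all, 28 genes had at most 3 fragments in each library, and 28 others passed the filter. Of these 28 tested genes, 7 rose and 8 fell, close to the shares of all tested genes given above, with a median log2 change of −0.02. Genes classed in the list as paternally expressed counted 1 higher and 2 lower of 8 tested, and those classed as maternally expressed 3 higher and 2 lower of 10. Whether these genes keep that allele use in this line was not measured. Among those classed as dependent on the isoform or tissue, 3 rose and 4 fell of 10. Outside the loci above, GRB10, an adaptor that dampens insulin receptor signalling, rose from 6.315 ± 0.362 to 9.20 ± 0.00834 FPKM (0.48, limma adjusted p = 0.000473). NAA60, a Golgi N-acetyltransferase gene, fell by 0.35, MCTS2 by 0.34, ZNF331 by 0.29 and INPP5F, a phosphoinositide phosphatase gene, by 0.20. MCTS2 is a retrocopy of MCTS1, and reads may be shared between the 2 genes.

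**Figure D3:**
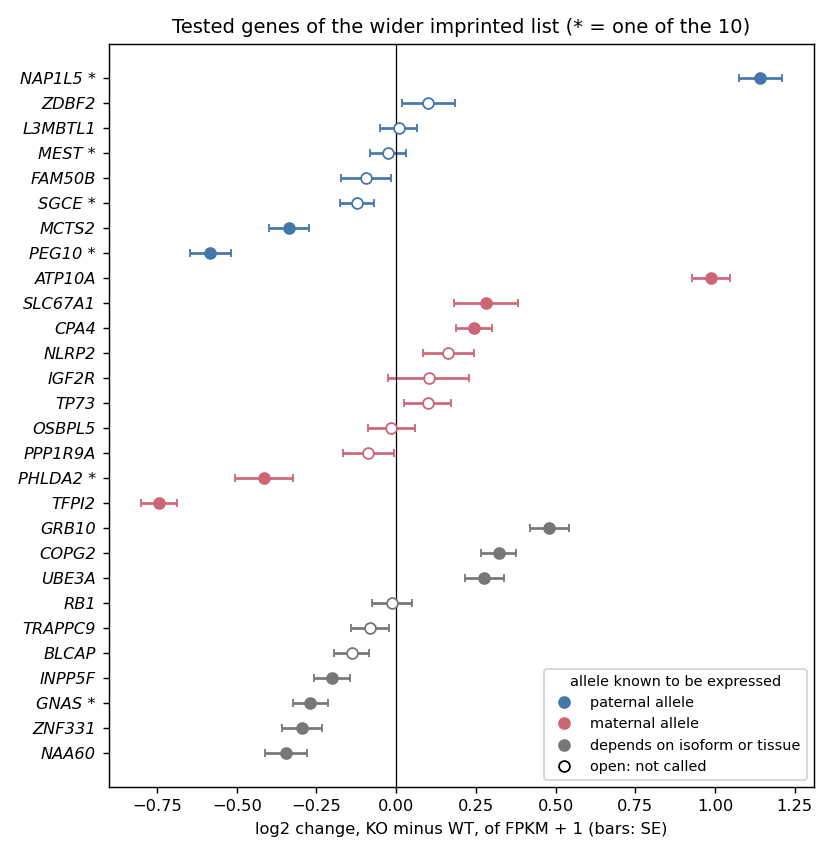
Log2 change (KO minus WT, of FPKM + 1, bars, SE) of the 28 tested genes of the imprinted list. They are grouped by the class given in the list (paternal, maternal, or dependent on isoform or tissue), not by measured allele use. Filled points passed an adjusted p under 0.05 and asterisks mark the 10 genes described here. Each group holds genes on both sides of 0, from TFPI2 (−0.74) to NAP1L5 (1.14).

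Of 13 genes that set or keep imprints, 9 were tested, of which 2 fell and none rose, against 28.4% lower and 21.6% higher among all tested genes. The 2 were TRIM28, the corepressor recruited by ZFP57 and ZNF445, which fell from 154 and 159 FPKM to 133 and 126 FPKM (−0.27, limma adjusted p = 0.00389), and the maintenance methyltransferase DNMT1, from 92.5 and 89.8 FPKM to 77.4 and 76.4 FPKM (−0.24, limma adjusted p = 0.00498). In both, the KO libraries lay below the WT libraries, in bins with medians of −0.09 and −0.17. UHRF1, which guides DNMT1 to newly copied DNA, was not called (−0.04), nor were ZNF445, SETDB1, DNMT3A, SMCHD1, CTCF and YY1. ZFP57 is listed at 0 in all libraries, as is DPPA3. Their median of −0.01 compares with −0.04 over all tested genes, and no common direction was found in this list.

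**Figure D4:**
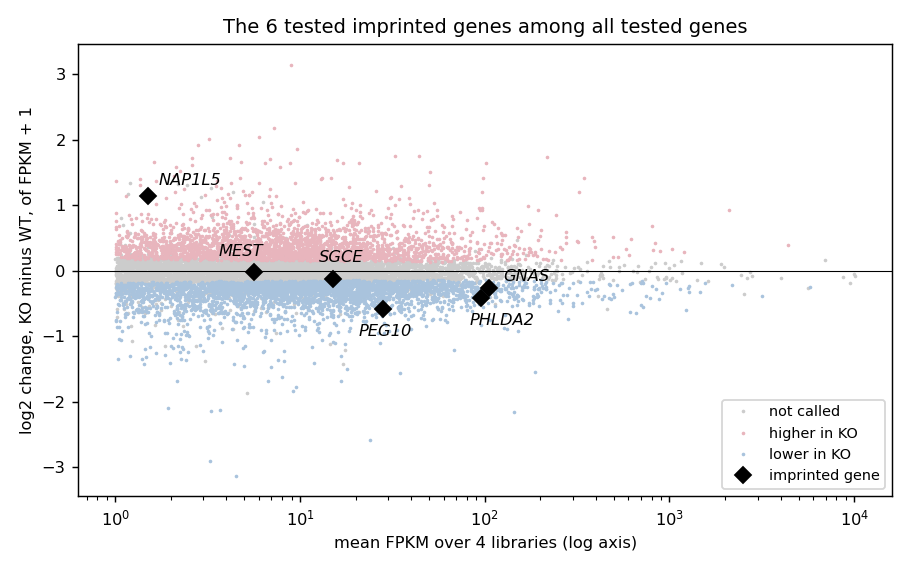
Log2 change (KO minus WT, of FPKM + 1) against mean FPKM over the 4 libraries (log axis) for the 11716 tested genes, coloured by call, with the 6 tested imprinted genes as black diamonds. NAP1L5 (1.14) lies among the larger rises at the low end of expression, PEG10 (−0.58) within the cloud of called falls, and MEST (−0.02) and SGCE (−0.12) among genes that were not called.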

How the data were processed

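Total RNA of 4 MDA-MB-231 libraries, grouped by their labels as 2 WT and 2 KO, was isolated and sequenced commercially, per the labels' protocols. STAR, Subread and DESeq2 are listed in the submitters' processing notes, without versions or roles. The build, like annotation and strand setting, is not given in the sources used here. A single table of FPKM values was deposited by the authors, with 39259 genes by Entrez ID and their exon coordinates and lengths, per the file headers. The products of FPKM and length in kilobases added up to 1000000 per library, and dividing by the smallest product gave whole fragments for 100% of values above 0 (tolerance 0.001). Columns of other samples numbered 0. Symbols came from RefSeq (GRCh38.p14), matched for 37708 genes (96.0%); 98.4% of those on 1 chromosome had a start or end within 1000 bp.

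The values are not counts, so the test was limma (version 3.58.1, R 4.3.3; trend and robust) on log2(FPKM + 1), KO minus WT, for the 11716 genes that averaged 1 FPKM or more, with p-values adjusted by Benjamini-Hochberg and called under 0.05. The steps were tested on simulated data in which few genes changed, and by more than most changes reported here. That run does not cover data in which 49.9% of the tested genes are called. The members and lists were chosen with earlier results of these data known. Named were all 10 members, RIOX2, imprinted genes within 1 Mb of a member, called genes of the lists, marker genes and their relatives, and near neighbours. APCDD1L and APCDD1L-DT, HERC5, PRELID3B, NELFCD, CASD1, GNG11, BET1, UBE2H, LINC-PINT, TSSC4, CD81, STIM1, RHOG, PGAP2 and MKRN3 were chosen after their values were seen. Bins are 20 Mb wide, their medians leave out the gene itself, and bins with fewer than 20 tested genes were not adjusted. Where a library was left out, the remaining one of that group was taken to vary as the other group does. Alternatives were another pseudocount, 2 filters, 2 scalings, limma without trend or robust, voom on the computed fragments, bin medians subtracted, a block for replicate number, and leaving out single libraries.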

Additional observations from a re-analysis of the deposited data

How the results depend on the processing

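Depth limits the low genes: 3 fragments on a gene of 1 kb were 0.0575 to 0.133 FPKM, so the level of PLAGL1 rests on few fragments, and with 2 libraries a group the precision of every value is low. Over the settings run, the signs of PEG10 (−0.66 to −0.51, called in 13 of 13), NAP1L5 (0.87 to 2.08, called in 12 of 12), PHLDA2 (−0.55 to −0.28, called in 12 of 13), GNAS (−0.32 to −0.06, called in 12 of 13) and SGCE (−0.17 to −0.08, called in 1 of 13) were as reported. PHLDA2 lost its call with no filter (adjusted p = 0.0622), where 25798 genes were tested, and GNAS with bin medians subtracted. MEST turned to 0.014 with median-of-ratios scaling and was called in 0 of 13. With a mean of at least 5 FPKM, 0 of the 10 genes were called higher, since NAP1L5 was not tested. The main filter was passed by NAP1L5 only through its level in KO.

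Over all genes, 5850 calls became 3808 and 3521 without KO replicates 1 and 2 and 7077 and 6453 without WT replicates 1 and 2; the counts among the 10 genes stayed at 1 higher and 3 lower in all of these. Higher calls made up 43.2% of all calls in the deposited FPKM, 51.9% with scaling by median of ratios and 50.2% with bin medians subtracted. The replicate numbers name no shared culture, and same-numbered libraries deviated in opposite directions (r = −0.225 across genes), so they were not treated as pairs: a replicate block gave 5377 calls and a crossed block, added after the data were seen, 6660, both with 1 of the 10 genes higher and 3 lower.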
